A study of Mus musculus with 24 samples.

Results

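The change of the KLA response by TET loss was measured as an interaction over 8 RNA-seq libraries of bone marrow-derived macrophages (BMDMs), out of 24 libraries in the series. KLA is Kdo2-lipid A, the purified active part of bacterial lipopolysaccharide, given at 10 ng per ml. For each gene, the log2 change between 0 h and 6 h of KLA in WT cells was subtracted from the same change in TET iTKO cells. A value of 0 means the same fold response in both genotypes, and a negative value means a smaller induction or a deeper fall in TET iTKO. The 4 groups of 2 libraries were chosen by their labels alone: WT and TET iTKO, each at 0 h and at 6 h. Of 23420 gene symbols with counts, 12200 were tested and 52 were called at a Benjamini-Hochberg adjusted p below 0.05, and these 52 genes are the subject of what follows.

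All mice were C57BL/6, 8 to 16 weeks old, and both the Cre-carrying and the control animals had been injected with tamoxifen. TET iTKO mice were homozygous for floxed Tet1, Tet2 and Tet3 and carried a tamoxifen-activated Cre, together with a Rosa26-EYFP LSL reporter of Cre activity. Controls are labelled wild type, and the alleles that they carried are not given in the sources used here. The drug was given to the mouse, so every type of marrow cell was exposed before BMDMs were grown out with L929-conditioned medium and M-CSF. The compared cohort held WT and TDG iKO BMDMs, the latter with floxed Tdg, the same Cre and a Rosa26-H2B-EGFP/GPI-mCherry LSL reporter, at the same 2 times of KLA. Each replicate was 1 animal, and its 0 h and 6 h libraries came from that animal.

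Lipid A is recognised by TLR4 with its partner MD-2 and the coreceptor CD14. The signalling branch through MyD88 acts early on NF-kB and AP-1, and the branch through TRIF turns on interferon beta, which then induces a large set of interferon-stimulated genes in the same culture. The products include cytokines, receptors that tune later responses, enzymes that make prostaglandins and quench superoxide, and feedback inhibitors such as SOCS3. TET proteins oxidise methylated cytosine, an early step of DNA demethylation. A fold response depends on the level before the stimulus as much as on the level after it, so both levels are given for each gene below. All levels are counts divided by the size factor of their library, called normalised counts, and they are compared between libraries and not between genes.

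The counts of the targeted genes could not check the labels, since they cover whole genes and do not separate the floxed exons from the others. Tet2 stood at 595 and 708 normalised counts in WT at 0 h and at 872 and 822 in TET iTKO, and at 1458 and 1672 against 1760 and 1887 at 6 h. Tet3 ran from 1300 to 1814 over all 8 libraries, and Tet1 was at 0 in both WT libraries at 0 h and between 1.8 and 15.6 elsewhere. None of the 3 was called in the interaction.

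The 8 libraries held 13145625 to 21503302 reads assigned to genes, 56.1 to 65.5% of the pairs counted. The summed level of 9 macrophage markers was 441353 to 457692 in WT and 368128 to 375989 in TET iTKO at 0 h, and 469754 to 478465 against 372899 to 382810 at 6 h. Lyz2 alone made up nearly all of the net difference at 0 h, at 310202 and 295121 in WT against 232635 and 223875 in TET iTKO. Of the 9 macrophage markers tested, 4 were called lower (Cd68, Lyz2, Mertk and Mrc1) and 1 higher (Itgam) in TET iTKO at 0 h. Emr1 and Csf1r had higher estimates in TET iTKO at 0 h that were not called. Markers of other cells moved with genotype as well: 10 neutrophil markers summed to 4012 to 4072 in WT and 7521 to 7920 in TET iTKO at 0 h, and to 7147 to 7210 against 10359 to 10925 at 6 h, while Retnlg and Cxcr2 stayed at or below 10 counts in all libraries. The sum of 11 dendritic cell markers was lower in TET iTKO, at 15638 to 17022 against 33813 to 47454 at 0 h, and nearly all of it came from H2-Aa, H2-Ab1 and Cd74, which were called lower. Ciita (13.7 and 9.93 in WT against 36.4 and 37.8, adjusted p = 0.00757) and Ccr7 (3.17 and 3.82 against 9.7 and 54.8, adjusted p = 0.0213) were called higher, and the median TET effect at 0 h over the 8 dendritic cell markers tested was 0.48 (log2), with Cd209a at 0 and Zbtb46, Xcr1 and Siglech at or below 10 counts everywhere. Monocyte markers reached 3379 to 5610 in TET iTKO against 2681 to 2870 at 0 h, and 3634 to 4637 against 3019 to 3484 at 6 h. In the remaining lists, 1 of 9 progenitor markers (Cd34) and 2 of 4 lymphocyte markers tested (Cd79a and Ms4a1) were called higher in TET iTKO at 0 h. So was 1 of 4 stromal markers tested, Dcn (205 and 160 in WT against 467 and 575), and 0 of 2 mast cell and basophil markers. In these lists 0 were called lower. Of all markers, 1 was called in the interaction, Lcn2, which stands in the neutrophil list. The part of these cell types in the changes below was not tested, and in bulk RNA more cells of a type cannot be told apart from more RNA per cell.

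Among the 52 called genes, 46 had a smaller induction or deeper fall in TET iTKO, 0.377% of the genes tested, and 6 had the opposite, so that 0.426% of the genes were called in all. The largest group was 36 genes that KLA raised in WT and that already stood higher in TET iTKO before KLA, led by the formyl peptide receptor gene Fpr1, with an interaction of -1.59 ± 0.20 (log2, SE, n = 2 libraries a group, adjusted p = 3.04e-11). The number of calls differed widely between tools and between fits with and without paired animals. With edgeR's quasi-likelihood test 1 gene was called, Spata13 (0.00874% of 11441), beside 721 at an unadjusted p below 0.05, and with limma voom 0 were called beside 673; DESeq2 had 544 at that level. When each animal's 0 h and 6 h libraries were paired, as a replicate block nested in genotype, DESeq2 called 225 of 9089 genes (2.48%), 198 of them lower (2.18%), and edgeR called 365 (3.19%). All 52 genes were among those 365, and 48 were among the 225 in the same class as without the block. The 4 that were not called with the block in DESeq2 were Bmp1 (adjusted p = 0.229), Ccl2 (0.0772), Gadd45a (0.0809) and Ppp1ca, for which no adjusted p was returned. Leaving out 1 library gave 14 calls without replicate 2 of TET iTKO at 0 h, 22 and 20 without replicates 1 and 2 of WT at 0 h, 28 without replicate 1 of TET iTKO at 6 h, and 155 without replicate 1 of WT at 6 h. The last genes inside the threshold were Rin2 (adjusted p = 0.0479) and Il21r (0.0499), and the next outside it were Adam19 (0.0603) and Ptger4 (0.0616).

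The 4 contrasts behind the interaction were called far more often. KLA changed 24.1% of genes in WT BMDMs, and its share was 24.4% in TET iTKO. TET loss changed 7.5% of genes at 0 h and 6.58% at 6 h. The interaction of a gene equals its TET effect at 6 h less its TET effect at 0 h, so each called gene was placed in a class by which of these effects was the larger and by its response to KLA. The classes were read from the values that made the calls, and nothing below that follows from the class rule is a test. By this rule 36 genes had a raised baseline and were raised by KLA, 2 had a raised baseline and lower estimates after KLA, 4 had a blunted induction, 4 a deeper repression, 3 a lowered baseline, 2 an enhanced induction and 1 a shallower repression. The first class held 69.2% of the called genes, and 2315 of all 12200 tested genes had estimates that place them there. Its share was 66.7% among the 225 genes called with the paired animals and 57.8% among the 365 called by edgeR in that way.

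**Figure D1:**
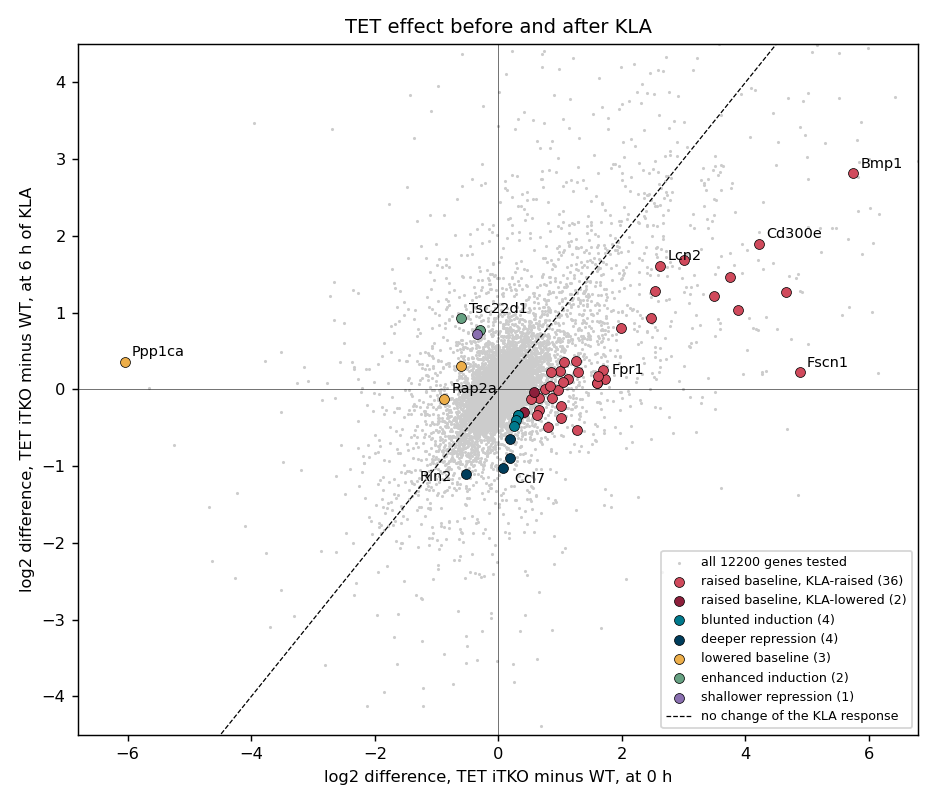
Each point is a gene, with the log2 difference between TET iTKO and WT at 0 h on the horizontal axis and at 6 h on the vertical axis; grey points are the 12200 genes tested (55 lie outside the axes), coloured points are the 52 called genes by class, and the dashed line marks an unchanged KLA response. The 36 genes with a raised baseline and KLA-raised expression lie right of 0 and below the line, and Ccl7 and the other genes of blunted induction and deeper repression lie below 0 on the vertical axis.

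The promoters of the leading gene with an entry in each of the 4 main classes are shown because they give the sequence from which the start of each transcript is driven, from 250 bases before to 50 after the start in the RefSeq table for GRCm38.p6. Capitals mark a match, on either strand, to the interferon response core GAAANNGAA or to the PU.1 core GAGGAAG. The windows lie at chr17:17883890-17884189 (minus strand, Fpr1), chr6:82774405-82774704 (minus, Hk2), chr11:115133943-115134242 (minus, Cd300lf) and chr14:76414711-76415010 (plus, Tsc22d1, the first listed of 5 starts).
Fpr1: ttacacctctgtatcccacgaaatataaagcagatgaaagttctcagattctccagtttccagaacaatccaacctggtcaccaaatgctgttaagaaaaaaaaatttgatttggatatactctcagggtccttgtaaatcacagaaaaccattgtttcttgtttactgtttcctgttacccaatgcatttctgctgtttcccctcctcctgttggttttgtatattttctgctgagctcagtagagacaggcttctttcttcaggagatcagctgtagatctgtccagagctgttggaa
Hk2: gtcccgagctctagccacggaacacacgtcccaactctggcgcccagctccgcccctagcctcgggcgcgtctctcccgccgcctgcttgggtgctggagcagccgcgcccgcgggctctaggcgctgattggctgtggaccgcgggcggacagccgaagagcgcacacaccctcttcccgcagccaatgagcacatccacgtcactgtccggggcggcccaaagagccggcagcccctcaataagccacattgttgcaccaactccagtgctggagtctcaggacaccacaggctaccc
Cd300lf: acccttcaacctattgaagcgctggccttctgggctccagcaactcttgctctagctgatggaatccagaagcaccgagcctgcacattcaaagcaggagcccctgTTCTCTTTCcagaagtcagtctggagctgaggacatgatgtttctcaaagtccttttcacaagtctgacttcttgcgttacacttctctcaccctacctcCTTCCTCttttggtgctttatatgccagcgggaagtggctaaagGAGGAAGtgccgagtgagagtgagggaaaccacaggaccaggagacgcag
Tsc22d1: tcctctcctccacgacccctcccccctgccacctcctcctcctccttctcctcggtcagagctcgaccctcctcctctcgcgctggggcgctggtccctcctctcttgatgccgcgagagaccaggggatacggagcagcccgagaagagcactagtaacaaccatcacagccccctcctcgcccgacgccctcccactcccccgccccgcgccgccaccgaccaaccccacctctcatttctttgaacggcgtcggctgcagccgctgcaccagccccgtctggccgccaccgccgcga
Fpr1 has 1 CpG in this window, Cd300lf 6, Hk2 25 and Tsc22d1 27. Only the Cd300lf window held a match, and it held 1 interferon response core and 2 PU.1 cores. Of the 38 raised-baseline genes, 36 had an entry, with a median of 7 CpG, the same as over all promoters of the table (7), ranging from 1 in 8 genes that include Fpr1, Fpr2 and Siglece to 52 in Lmo4. The PU.1 core was in 8 of the 36 (22.2%) and in 13.6% of all 32851 promoters of the table, the interferon response core in 4 (11.1%) and in 8.56%, the AP-1 motif TGANTCA in 4 (11.1%) and in 7.81%, the NF-kB consensus in 2 (5.56%) and in 4.51%, and the CRE TGACGTCA in 2 (5.56%) and in 1.79%. Over the 9699 tested genes with an entry the median was 21 CpG, above that of the raised-baseline genes. The motif shares there were 13.8% (PU.1 core), 7.39% (interferon response core), 5.23% (AP-1), 4.94% (NF-kB) and 3.28% (CRE). This comparison is incomplete, since 79.5% of tested genes had an entry against 94.7% of the 38, and the differences were not tested. A match is a run of letters and not a known site.

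The genes of the raised-baseline, KLA-raised class stood higher in TET iTKO before any stimulus, and their products included receptors, kinases, enzymes, secreted proteins, transporters and nuclear proteins. Over the 36 genes the median TET effect was 1.28 (log2) at 0 h and 0.20 at 6 h, the median KLA response was 3.08 in WT against 1.92 in TET iTKO, and the median interaction was -1.25, ranging from -4.66 to -0.62. Over all genes tested, the medians of the TET effect at 0 h and of the interaction were 0.01 and -0.01. All 36 were called higher at 0 h, where 4.38% of genes were, and in all 36 both TET iTKO libraries lay above both WT libraries, which held for 27.3% of genes. At 6 h, 11 of the 36 were still called higher and 1, Spata13, was called lower. The ranges at 6 h overlapped in 15 genes, TET iTKO lay above in 18 and WT in 3, and over all genes 47.1% had no overlap in either direction. KLA raised all 36 in WT and 32 in TET iTKO; the 4 without a call in TET iTKO were 1600014C10Rik, Slfn9, Rnd3 and Klra2. At 0 h, TET iTKO stood at a median of 40.5% of the WT level after 6 h of KLA, and WT at 11.8%.

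Fpr1 and its neighbour Fpr2 encode G protein-coupled receptors for formylated peptides, which guide phagocytes to bacteria and to damaged cells. Fpr1 lies in mm9 at chr17:18013435-18020904 on the minus strand. Its normalised counts at 0 h were 1299 and 1063 in WT and 3268 and 4505 in TET iTKO, and at 6 h they were 13970 and 14780 against 15178 and 16208. The groups were far apart before KLA and close to each other after it, and the fold responses were 10.8 and 13.9 in the 2 WT animals and 4.64 and 3.6 in the 2 TET iTKO animals. Fpr2 followed the same course, from 433 and 441 in WT and 1124 and 1524 in TET iTKO to 4481 and 5290 and to 4789 and 5563 (interaction -1.52, adjusted p = 5.06e-09). Exons of Fpr2 overlap those of Fpr3 on the same strand and the receptors are near copies of each other, so a share of their reads could be placed with either.

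Other G protein-coupled receptors of the class were Gpr84, which senses medium-chain fatty acids, and Gpr18. Gpr84 stood at 507 and 484 in WT and at 1253 and 1962 in TET iTKO at 0 h, and at 5136 and 5030 against 5366 and 6757 at 6 h, where the difference was not called (interaction -1.45, adjusted p = 3.21e-06). Gpr18 had 1.06 and 3.82 counts in WT at 0 h, close to the floor of 3 counts, and 47.3 and 84.5 in TET iTKO, so the size of its fold in WT rests on very few reads.

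Surface receptors that inhibit or activate leukocytes formed a group of 5: Siglece, Cd300e, Pilra, Pilrb1 and Klra2. Siglece, an inhibitory receptor for sialic acid, had 109 and 96.3 normalised counts in WT and 513 and 616 in TET iTKO at 0 h, then 1260 and 1002 against 2079 and 2235 (interaction -1.54, adjusted p = 2.41e-07). Cd300e, an activating receptor of monocytes, rose from 16.9 and 15.3 to 195 and 214 in WT, and from 243 and 353 to 604 and 924 in TET iTKO (interaction -2.32, adjusted p = 5.96e-05). Both unstimulated TET iTKO libraries were therefore above both stimulated WT libraries for Cd300e, as they were for Klra2 (1765 and 2053 against 1512 and 1604) and for Flrt3 (472 and 483 against 448 and 433). Such an order held for 3 of the 36 genes and for 31.2% of all genes tested. Pilra and Pilrb1 are close copies of each other and Klra2 belongs to a large family, so their counts are uncertain in the same way as those of Fpr2.

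Among signalling and feedback genes, Socs3, whose product binds cytokine receptors and limits signalling from them, was at 381 and 312 in WT and 878 and 1210 in TET iTKO before KLA. After 6 h it was at 5796 and 6292 against 5476 and 7307, and the ranges overlapped (interaction -1.52, adjusted p = 2.31e-07). Spata13, a guanine nucleotide exchange factor for small GTPases, was the gene also called by edgeR without pairing (adjusted p = 0.0407, range over the alternatives 1.49e-09 to 0.0755). It was at 262 and 272 in WT and 457 and 476 in TET iTKO at 0 h and at 2124 and 2446 against 1681 and 1578 at 6 h, so the order of the genotypes turned over between the 2 times. The tyrosine kinase Fgr (interaction -0.75), the adaptor Samsn1 (-0.93), the cortactin-like Hcls1 (-0.66) and the Ras activator Rasgrp1 (-1.43) were called as well.

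Enzymes and secreted proteins were a further group. Sod2, the mitochondrial superoxide dismutase, was at 4886 and 4271 in WT and 7579 and 7966 in TET iTKO at 0 h, and after KLA the genotypes were nearly equal, at 31839 and 32071 against 31860 and 32078 (interaction -0.76, adjusted p = 7.69e-05). Ptges, which makes prostaglandin E, moved from 434 and 469 to 11858 and 14825 in WT and from 893 and 918 to 15093 and 16433 in TET iTKO (interaction -0.76, adjusted p = 0.0092). Lcn2, the iron-scavenging lipocalin that is also a neutrophil marker, was at 285 and 214 in WT and 1760 and 1301 in TET iTKO at 0 h, and at 1316 and 1290 against 4302 and 3659 at 6 h (interaction -1.01, adjusted p = 0.00851). The neutrophil marker sum given above includes Lcn2, so it is not separate from these counts. Of the 9 neutrophil markers tested, 5, Lcn2 among them, were called higher in TET iTKO at 0 h, and 5 at 6 h. Csf3r had lower counts in TET iTKO at 6 h, at 3474 and 3274 against 3812 and 4337 in WT, which was not called. The oxysterol-making Ch25h (-0.98), the NAD-consuming Cd38 (-0.62) and the uridine phosphorylase Upp1 (-2.27) were further enzymes of the class, and the protease inhibitor Serpinb2 (-1.31) and the metalloprotease Bmp1 (-2.92) belonged to it too. The sugar transporter Slc2a6, the anion transporter Slco3a1, the cytoskeletal Rnd3, Marcksl1 and Fscn1, the membrane proteins Tmem176b and Flrt3, the nuclear Lmo4 and Zfp811, the ubiquitin ligase Rnf144a, Slfn9 and the uncharacterised D330045A20Rik and 1600014C10Rik made up the rest. Zfp811, Gpr18, Upp1, Fscn1, Bmp1 and Rnf144a had a mean below 10 normalised counts in WT at 0 h. With only genes at a mean of at least 10 in all 4 groups, a limit added after the data were seen, 45 of the 52 remained.

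**Figure D2:**
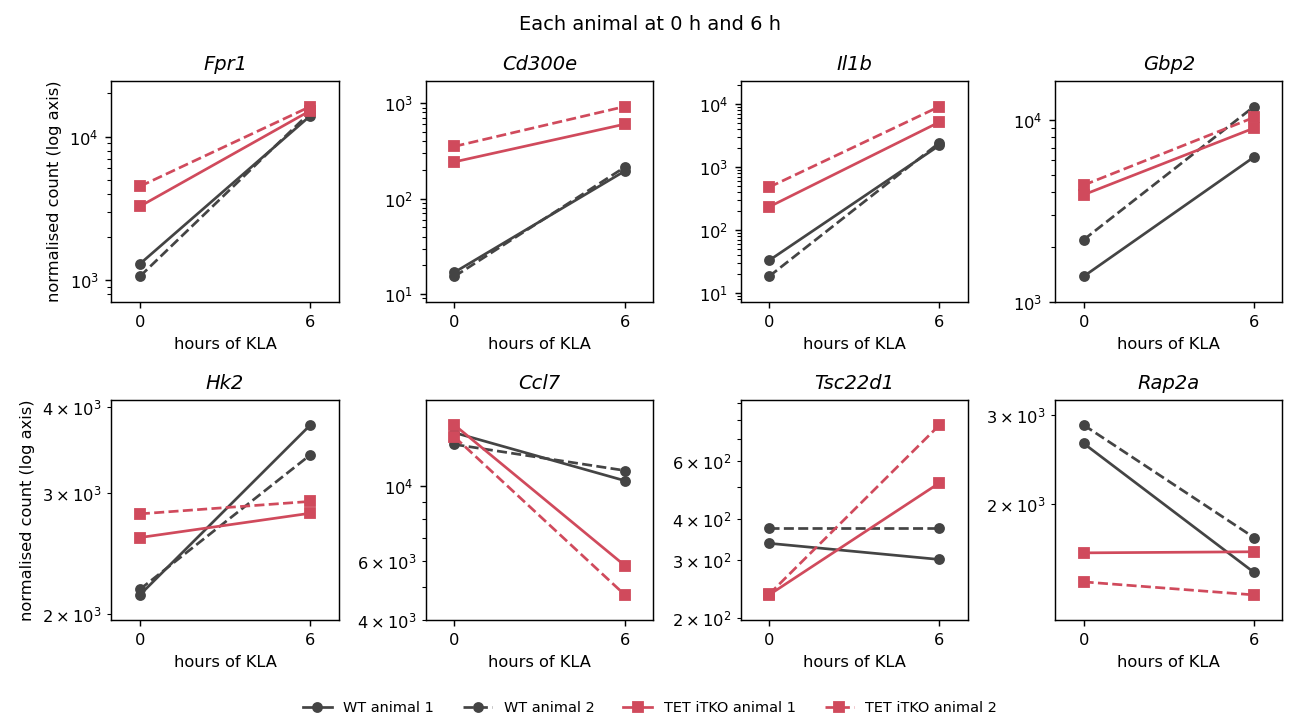
Normalised counts (log axis) at 0 h and 6 h of KLA for genes that lead their classes, and for Il1b and Gbp2, with a line for each animal (dark circles WT, red squares TET iTKO). The TET iTKO lines start above the WT lines and meet them at 6 h for Fpr1, stay above for Cd300e, cross from above to below for Hk2 and from below to above for Tsc22d1, and part from a shared start for Ccl7.

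A smaller fold was not always a smaller gain in transcripts. In the 36 genes, the mean rise in normalised counts from 0 h to 6 h was larger in TET iTKO in 15, and in 11 of these both TET iTKO animals gained more than both WT animals. The 11 were Siglece, Cd300e, Zfp811, Tmem176b, Serpinb2, Lcn2, Gpr18, Upp1, Cd38, Bmp1 and Rnf144a. Lcn2 gained 1030 and 1076 counts in WT and 2542 and 2358 in TET iTKO, and Serpinb2, a serpin of activated macrophages, gained 769 and 616 against 1923 and 2237. In 16 other genes both TET iTKO animals gained less than both WT animals, so that fold and gain pointed the same way. The share of all genes with gains separated in this way was not computed, so these counts only describe the 36 genes. Fpr1 gained 12670 and 13717 counts in WT and 11909 and 11704 in TET iTKO, Sod2 26953 and 27800 against 24281 and 24112, and Spata13 1862 and 2174 against 1224 and 1102. For Lcn2 and the other 10 genes, the direction of the change in the response therefore turned with the scale on which it was measured.

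**Figure D3:**
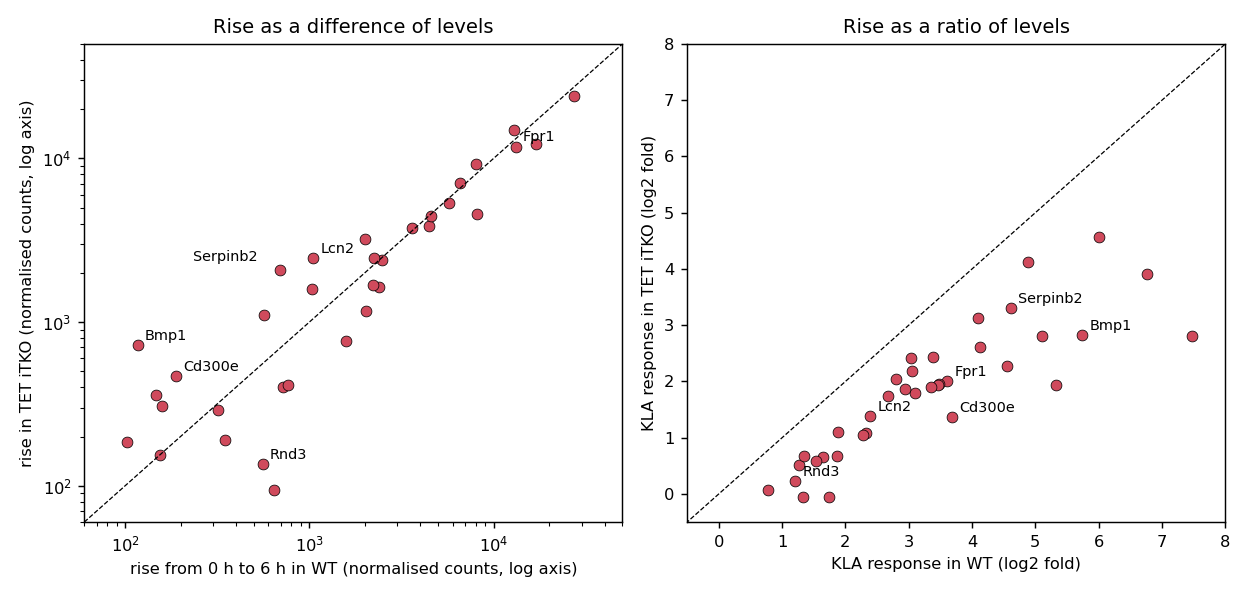
The left panel plots, for the raised-baseline genes, the mean gain in normalised counts between 0 h and 6 h in TET iTKO against that in WT (log axes, 34 of 36 genes, since 2 had no gain in TET iTKO), and the right panel plots the log2 fold response in the same way. In the right panel all genes lie below the line of equality, and in the left panel 15 lie above it.

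Bach1 and Il21r also had a raised baseline, but their levels were lower after KLA. Bach1 encodes a repressor of haem oxygenase and other antioxidant genes, and its normalised counts went from 1811 and 1917 to 1714 and 1601 in WT and from 2707 and 2876 to 1637 and 1614 in TET iTKO. Il21r, the interleukin 21 receptor, went from 1503 and 1557 in WT and 2001 and 2100 in TET iTKO to at most 1349 in WT and to 939 and 1024 in TET iTKO. Both fell in TET iTKO, by 0.78 and 1.06 on the log2 scale (adjusted p = 8.06e-11 and 2.76e-13), and neither passed the test in WT (adjusted p = 0.319 and 0.0523). Their interactions were -0.61 ± 0.16 (adjusted p = 0.0344) and -0.72 ± 0.19 (0.0499).

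The blunted inductions were small and concerned 4 genes that KLA raised in WT and that ended lower in TET iTKO, among them Hk2, March1 and Sap30. Hk2, the inducible hexokinase of glycolysis, went from 2130 and 2170 to 3762 and 3404 in WT and from 2581 and 2794 to 2800 and 2913 in TET iTKO, where KLA gave no call (-0.65 ± 0.16, adjusted p = 0.0125). March1, a ubiquitin ligase that removes MHC class II from the surface, was at 4475 and 5281 in WT and 3955 and 3453 in TET iTKO at 6 h (-0.69 ± 0.17, adjusted p = 0.0207), and Sap30, a subunit of the Sin3 histone deacetylase complex, at 1458 and 1495 against 983 and 1131 (-0.73 ± 0.19, adjusted p = 0.0386). In all 4 genes both TET iTKO libraries lay above both WT libraries at 0 h and below both at 6 h, and both TET iTKO animals gained fewer counts than both WT animals. Over all genes, TET iTKO lay above at 0 h in 27.3%, and 47.1% had no overlap in either direction at 6 h. For gains the share over all genes was not computed. The pattern follows in part from the class rule and is no test. March1 overlaps a predicted gene on the opposite strand, and the strand setting of the counting is not given in the sources used here.

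Deeper repression was seen for 4 genes, of which Ccl7 and Ccl2 are adjacent chemokine genes whose products attract monocytes through CCR2. Ccl7 (mm9 chr11:81859214-81861027, plus strand) started alike, at 14429 and 13313 normalised counts in WT and 15208 and 14023 in TET iTKO. After 6 h of KLA it stood at 10385 and 11133 in WT and at 5805 and 4749 in TET iTKO, without overlap (interaction -1.10 ± 0.16, adjusted p = 7.36e-08). Ccl2 began at 10741 and 10338 in WT and 12242 and 11617 in TET iTKO and ended at 9593 and 10544 against 7786 and 5145 (-0.82 ± 0.21, adjusted p = 0.0316, and 0.0772 with the paired animals). Cd300lf, an inhibitory immunoreceptor, ended at 967 and 1352 in WT and at 651 and 588 in TET iTKO (-1.08 ± 0.24, adjusted p = 0.00481) after overlapping ranges at 0 h. Rin2, an effector of Ras and Rab5, was lower in TET iTKO at both times, at 3962 and 3550 against 5183 and 5547 before KLA and at 2059 and 1981 against 4103 and 4576 after it (-0.59 ± 0.16, adjusted p = 0.0479). All 4 were called lower at 6 h and fell with KLA in TET iTKO, while in WT Ccl2 had a change of -0.07 that was not called.

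The 6 genes with a positive interaction were of 3 kinds. Tsc22d1, a leucine zipper protein induced by TGF-beta, was the clearest enhanced induction: it held 337 and 375 normalised counts at 0 h and 301 and 375 at 6 h in WT, but went from 235 and 236 to 514 and 770 in TET iTKO (interaction 1.52 ± 0.31, adjusted p = 6.33e-04). Gadd45a, a stress-induced growth arrest gene, went from 1308 and 1726 to 1155 and 1101 in WT and from 1335 and 1142 to 1738 and 2129 in TET iTKO (1.07 ± 0.22, adjusted p = 0.00118, and 0.0809 with the paired animals). Enc1, an actin-associated BTB-kelch protein, fell in both, from 780 and 772 to 121 and 132 in WT and from 672 and 547 to 183 and 233 in TET iTKO, a shallower repression (1.07 ± 0.28, adjusted p = 0.0318). Rap2a, a small GTPase, started at 2637 and 2869 in WT and 1596 and 1397 in TET iTKO and ended at 1459 and 1712 against 1604 and 1316, and Arhgap22, which inactivates Rac, showed the same lowered baseline (0.76 ± 0.20 and 0.91 ± 0.24, adjusted p = 0.032 and 0.0318). Ppp1ca, a catalytic subunit of protein phosphatase 1, had 108 and 100 counts in WT at 0 h and at most 3.48 in the other 6 libraries, at or near the floor of 3 counts. Its fitted interaction of 6.41 (adjusted p = 0.00349) rests on those few counts and is no bound on a fold, and the gene shares exon sequence with Rad9 on the opposite strand, so the size of its change is uncertain. Arhgap22 and Gadd45a also overlap a gene on the opposite strand.

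Of 30 cytokines and chemokines tested, 2 were called lower, Ccl2 and Ccl7, and 0 higher. This is 6.67% of the list, against 0.377% of all genes called lower. The median interaction was -0.35 against -0.01 over all genes, and 23 of the 30 estimates were below 0, against 51.7% of all genes. With the paired animals Il1b, Cxcl10, Cxcl11 and Ccl7 were called lower and Ccl3 higher. Tnf, a central cytokine of this pathway, had an interaction of -0.01, with 1339 and 1451 in WT and 1355 and 1674 in TET iTKO at 0 h and 7233 and 9244 against 7980 and 9816 at 6 h. Cxcl10, a ligand of CXCR3, went from 180 and 538 to 4957 and 17186 in WT and from 780 and 1376 to 5433 and 8437 in TET iTKO. At 6 h the 2 WT animals lay on either side of both TET iTKO animals, and the interaction of -2.26 was not called without pairing and was called with it (adjusted p = 4.13e-50).

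Genes next to enhancers that the study had selected were not called in the interaction without pairing. Il1b, the interleukin 1 beta gene, was at 32.8 and 18.3 normalised counts in WT and 233 and 478 in TET iTKO at 0 h, and at 2220 and 2446 against 5207 and 9180 at 6 h. Its level was higher in TET iTKO at both times (adjusted p = 1.93e-10 and 0.0212), its fold was smaller (interaction -2.19, unadjusted p = 0.00261, adjusted p = 0.277, and 6.81e-04 with the paired animals), and its gain was larger, at 4974 and 8701 counts against 2187 and 2427. Il6 showed levels of 0 and 0.764 in WT at 0 h, and 51.6 and 164 in WT against 621 and 1377 in TET iTKO at 6 h (interaction -2.08, adjusted p = 1.0). Ptgs2, the inducible cyclooxygenase, ended at 1250 and 2187 in WT and 3778 and 6480 in TET iTKO (interaction -0.97), and Batf (-0.27), Alcam (0.33) and Mdfic (0.42) had small estimates that did not pass the test.

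Interferon-stimulated genes had smaller folds in TET iTKO throughout the list, in estimates that reached the threshold only when the animals were paired. Of 29 tested, 0 were called without the block and 19 were called lower with it (65.5%, against 2.18% of all genes), of which 17 had a raised baseline and Ifit3 and Ifi204 a blunted induction. All 29 estimates were below 0, with a median of -0.77 against -0.01 over all genes, and in all 29 the fold in both TET iTKO animals was below that in both WT animals, which held for 21.6% of all genes. The median log2 fold over the list was 0.84 and 1.09 in the 2 WT animals and 0.21 and 0.32 in the 2 TET iTKO animals. KLA raised 17 of the 29 in WT and 5 in TET iTKO, against 1556 of 11917 genes in WT and 1454 of 11352 in TET iTKO. Gbp3, a guanylate-binding protein of antimicrobial defence, had folds of 5.89 and 7.41 in the WT animals and 2.76 and 2.96 in the TET iTKO animals, and Rsad2, the antiviral viperin, had 3.14 and 4.45 against 1.59 and 1.8.

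The WT animals were not alike in this list. WT replicate 1 lay below WT replicate 2 in all 29 genes at 0 h and again in all 29 at 6 h. The summed level was 128581 and 175364 in WT and 198347 and 211425 in TET iTKO at 0 h, and 215787 and 387766 against 245772 and 277763 at 6 h. Both TET iTKO libraries lay above both WT libraries at 0 h in 26 of the 29 genes, against 27.3% of all genes, and 1 of the 26, Gbp2, was called. The ranges overlapped at 6 h in all 29, with 0 called.

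**Figure D4:**
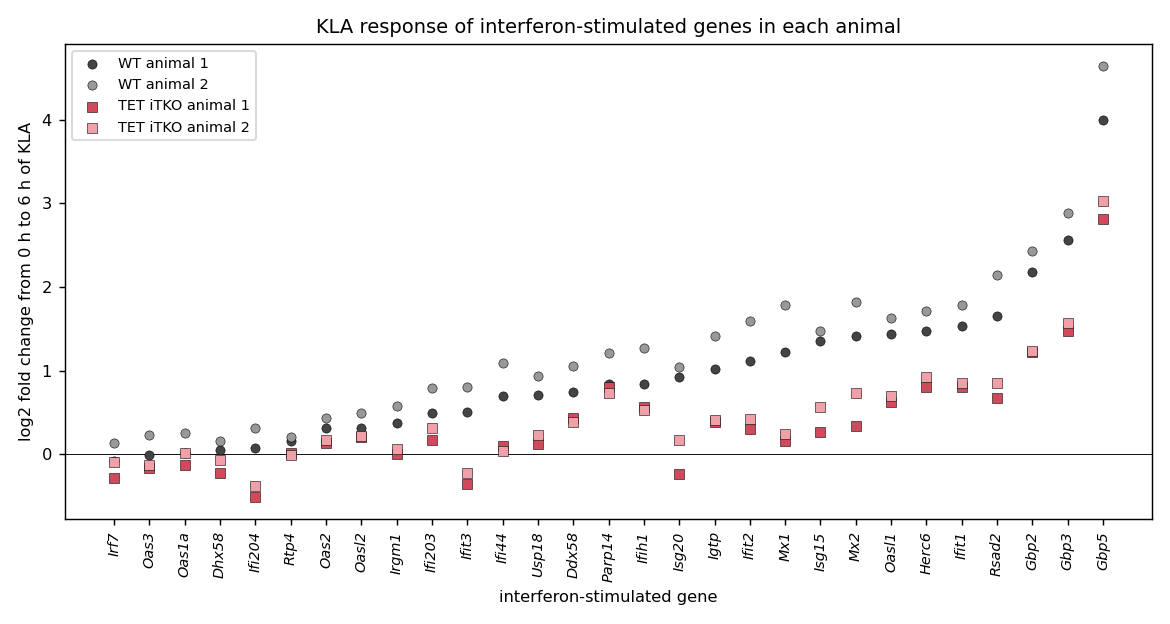
Log2 fold from 0 h to 6 h of KLA (with 0.5 added to each normalised count) for 29 interferon-stimulated genes, with 1 point for each animal, WT and TET iTKO in different colours. For each gene both TET iTKO points lie below both WT points, though for Irf7 and Oas1a the nearest points nearly touch, with medians of 0.21 and 0.32 against 0.84 and 1.09.

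Other lists of the pathway are set here against 0.377% of all genes called lower in the interaction, 4.38% called higher at 0 h and a median interaction of -0.01. Of 23 NF-kB subunits and feedback inhibitors, 1 was called lower, Socs3 (4.35%), with a list median of -0.22 and 11 of 23 called higher at 0 h (47.8%), and with the paired animals Tnip3 and Irak3 were also called lower and Tnfaip3 higher. Tnip3, which restrains NF-kB, was at 916 and 813 in WT and 1360 and 1890 in TET iTKO before KLA and at 2962 and 3003 against 2845 and 3594 after it (interaction -0.80, adjusted p = 0.0741). Of 21 genes of the TLR4 complex, its adaptors and kinases, 0 were called and the median was -0.01; with pairing 1 was called lower, Cd14, which was at 1486 and 1257 in WT and 3316 and 5218 in TET iTKO at 0 h. Of 22 immediate-early transcription factors 0 were called with or without pairing, with a median of -0.31. Of 18 enzymes of mediators and metabolism, Ptges and Sod2 were called lower (11.1%), with a list median of -0.33, and with pairing also Nos2 and Irg1, which make nitric oxide and itaconate, while Hpgds was called higher. Of 23 cholesterol genes 0 were called, with a median of 0.0, and with pairing Mylip was called higher. Of 24 cell cycle genes 0 were called, with a median of -0.12 and 8 called higher at 0 h in TET iTKO (33.3%), and with pairing Mki67 was called lower.

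Because the classes used the same libraries as the calls, the Tdg cohort served as a set of libraries that had no part in choosing them. In its WT animals, where KLA changed 8.6% of genes in either direction, all 36 raised-baseline, KLA-raised genes had a response above 0 and 29 were called, with a median of 2.60. The 36 were chosen as raised by KLA in WT, so this does not bear on their TET effects. Of the 2 enhanced-induction genes, 0 had the sign of their Tet-cohort WT response. Tsc22d1 went from 93 and 173 to 279 and 214 there, and Gadd45a from 268 and 405 to 755 and 502, neither called. Genes were also taken from that cohort alone. The 615 genes that KLA raised there had a median interaction of -0.20 in the Tet cohort, with 69.8% below 0, against -0.01 and 51.7% over all genes. Of the 615, 32 were called lower (5.2%) and 0 higher, and 191 were called higher in TET iTKO at 0 h (31.1%). Among the 118 that KLA raised at least 8-fold there, the median TET effect was 1.12 at 0 h and 0.47 at 6 h, the median interaction was -0.68, and 14 were called lower (11.9%). The 384 tested genes that KLA lowered there had a median interaction of 0.02, with a median TET effect of -0.24 at 0 h and -0.21 at 6 h.

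**Figure D5:**
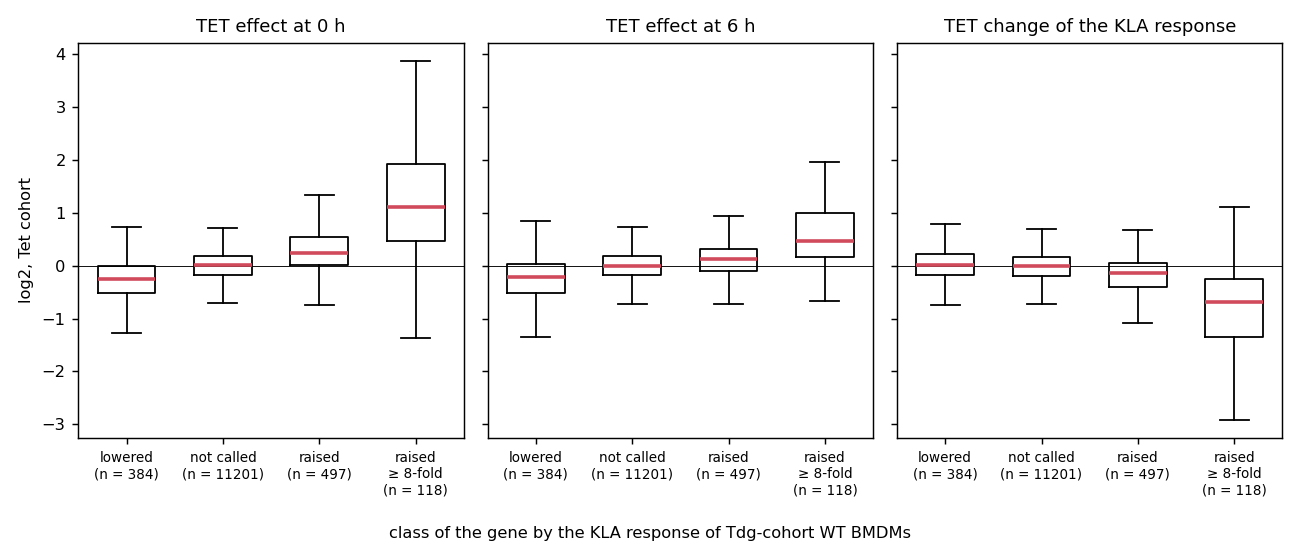
Boxes give the median and quartiles, with whiskers to the last gene within 1.5 box lengths, of the TET effect at 0 h, of that at 6 h and of the interaction (log2) in the Tet cohort for genes grouped by their KLA response in WT animals of the Tdg cohort: 384 lowered, 11201 not called, 497 raised less than 8-fold and 118 raised at least 8-fold. The median effect at 0 h goes from -0.24 through 0.01 and 0.25 to 1.12 over these sets, and the median interaction from 0.02 through 0.00 and -0.15 to -0.68.

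The same interaction for TDG loss gave 0 calls among 15026 genes by DESeq2, beside 37 at an unadjusted p below 0.05, and 0 by edgeR, beside 24. The Tdg libraries held 4982950 to 19405606 assigned reads. The interaction SE was larger there than in the Tet cohort for Fpr2 (0.54 against 0.21) and Sod2 (0.57 against 0.14). It was smaller for Fscn1 (0.75 against 1.19). The 0 calls therefore do not show that TDG loss left the response unchanged. Over the 36 raised-baseline, KLA-raised genes the median TDG interaction was 0.02, ranging from -3.96 to 0.83, and the median TDG effect at 0 h was -0.02. Fpr1 was at 797 and 923 in WT and 858 and 755 in TDG iKO at 0 h and at 9046 and 9838 against 8768 and 9286 at 6 h, an interaction of 0.03 ± 0.35. The lowest of these values, in Bmp1, had an SE of 1.78 and was not called (adjusted p = 1.0). The difference between the TET and TDG interactions was called for 0 genes without pairing, beside 166 at an unadjusted p below 0.05, and for 16 of 6528 with the animals paired. Of the 52 genes, Fpr1 (difference -1.60, adjusted p = 0.00867), Ccl7 (-1.72, 0.00999), Gpr84 (-1.52, 0.0118) and Tmem176b (-1.37, 0.0461) were among these 16. For the other 48 a difference between the 2 knockouts was not shown. Among them, Gpr18, Upp1, Fscn1, Bmp1, Rnf144a, Slfn9 and Ppp1ca had no adjusted p with the animals paired.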

How the data were processed

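PolyA+ RNA libraries (NEBNext Ultra II Directional, paired 50-bp reads) had been aligned to mm9 with HISAT2 and summarised with HTSeq by the authors, and the deposited files hold raw counts per gene symbol; the annotation, the strand setting and the aligner versions are not given in the sources used here. The 5 HTSeq tallies of unassigned pairs were kept out of library sizes. Groups were taken from the sample titles. The study's own method was DESeq2 1.30.0 with an adjusted p below 0.05.

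Here DESeq2 1.42.0 (R 4.3.3) was fitted to the 8 Tet-cohort BMDM libraries with genotype, time and their interaction, median-of-ratios size factors, unshrunken log2 changes, two-sided Wald tests and default filtering, and the 8 Tdg-cohort libraries were fitted in the same way. Alternatives were edgeR 4.0.16, limma voom 3.58.1, TMM scaling, a filter at 10 counts in 2 libraries, replicate blocks, a joint fit of 16 libraries and leaving out each library. The scripts were tested on simulated data with known changes. The deposited file names carry an animal number that the 0 h and 6 h libraries of a replicate share, so animals were paired by a block nested in genotype: deviations of same-numbered libraries correlated at 0.487 in WT and 0.453 in TET iTKO, against 0.0234 and 0.0506 between genotypes. This leaves 2 residual degrees of freedom, against 4 without the block. With 2 animals a group, p-values rest on a spread shared across genes.

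Genes were named as follows: up to 8 with the smallest adjusted p in each class, all with a positive interaction, any called by edgeR, list members called, 6 genes near enhancers, those at the threshold, and Tet1, Tet2 and Tet3; further members were named for their role after their values were seen. Members, classes and gene lists were chosen with earlier results of these data known. Log2 folds of single animals added 0.5 to each normalised count. Gene positions are mm9, promoters RefSeq GRCm38.p6 (634 of the tested genes matched by an older symbol). 2 genes are not reported here by name.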

Additional observations from a re-analysis of the deposited data

Results flagged for a closer look

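The KLA response differed between TET iTKO and WT by the interaction test itself for 52 genes. The leading genes named for the classes were Fpr1 (interaction -1.59), Bach1 (-0.61), Hk2 (-0.65), Ccl7 (-1.10), Ppp1ca (6.41), Tsc22d1 (1.52) and Enc1 (1.07), all on the log2 scale. The value for Ppp1ca rests on 108 and 100 normalised counts in WT at 0 h against at most 3.48 in the other 6 libraries and is no bound on a fold. The TET and TDG interactions differed from each other for 16 genes when the animals were paired, and for 0 without pairing. Of these 16, 7 were lower for TET: Cxcl10 (difference -2.34), Fpr1, Ccl7, Gpr84, Rsad2 (-1.38), Tmem176b and Ifit3 (-1.30). The other 9 were higher, and none of them was called for TET or for TDG alone: Zmiz1, Ptpn23, Atn1, Akna, Dot1l, Polr2a, C77080, Prrc2b and Tln1, with TDG interactions from -1.66 in Atn1 to -1.08 in Prrc2b. Groups of 2 libraries were too small to look for outlying samples.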

How the results depend on the processing

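The 52 calls of the TET interaction became 1 with edgeR, 0 with limma voom, 90 with a replicate block shared by the genotypes, 225 with the replicate block nested in genotype, 365 with edgeR and that nested block, 4 with all 16 BMDM libraries in a joint fit and 28 with a log2 change of at least 1, and ran from 14 to 155 with 1 library left out. TMM scaling (56), the count filter (53) and no independent filtering (48) kept the count within 1.5 times, and TMM moved the median interaction by 0.00. Leaving out 1 library gave 1878 to 2801 calls for KLA in WT, 1885 to 2705 for KLA in TET iTKO, 276 to 970 for the TET effect at 0 h and 264 to 703 at 6 h. The lowest 0 h counts were 276 without replicate 2 of TET iTKO and 386 and 434 without replicates 1 and 2 of WT, and the lowest 6 h counts were 264 without replicate 2 of TET iTKO and 414 without replicate 1 of WT. KLA in WT of the Tdg cohort gave 1001 calls, 413 with edgeR and 1822 with the nested replicate block, and the TET minus TDG difference gave 0 and, with that block, 16. The causes were not tested beyond the number of libraries. Over 861 refits of called genes, 0 changed direction and 361 lost the threshold. The refits reused the libraries that chose the genes, so a kept direction is no separate support. Refits that returned no adjusted p for a gene were left out. Genes with few counts in a group, such as Fscn1, Gpr18 and Bmp1, have uncertain fold sizes, and 2 animals a group limit the rest.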
